A study of Mus musculus with 4 samples.

Results

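Serine protease inhibitors of the serpin and Kunitz families were followed in dendritic cells (DC) from the spleens of mice given TCDD, a dioxin that activates the aryl hydrocarbon receptor (AhR). The members are the serpins Serpina1a, Serpina1b, Serpina1c, Serpina1d, Serpina3g, Serpina3n, Serpinb1a and Serpinb9 and the Kunitz inhibitors Spint1 and Spint2. All probe sets that the platform annotation gives to one of these symbols, alone or with other Serpina1 paralogues, were taken: 12 of the 22626 probe sets tested, 10 with 1 symbol and 2 shared between paralogues, of which 9 were at or above the 40th percentile of mean values (5.525) and 3 were dim, that is under it. Of the 10 members, among 12393 genes measured on probe sets of their own, 9 had a probe set and 7 had one of their own. Serpina1a and Serpina1d were represented only on a shared probe set, and Serpina3g is not analysed here. The members were chosen with earlier TCDD and DMSO values of these same arrays known. Their differences are therefore given as a description, with no test.

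The TCDD group received 10 µg/kg TCDD in corn oil and the DMSO group received the solvent DMSO in corn oil, in both cases as 1 intraperitoneal injection of female C57BL/6 mice aged 8 to 12 weeks. Mice were killed after 24 h, spleens were pooled within a group of 3 mice, and their DC were purified by centrifugation in a gradient and then by magnetic bead sorting; the stated purity is above 90%. Each group has 2 arrays, labelled biological replicate 1 and 2. The labels leave unsaid whether both arrays of a group came from separate pools of mice, so the spread between arrays may be partly technical.

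Serpins inhibit a protease by offering it a reactive loop as bait: once the loop is cut, the serpin changes shape and traps the protease. Kunitz inhibitors instead plug the active site with a small, rigid domain. In leukocytes such inhibitors protect cells and tissue from granule proteases, and on the surface of epithelial cells Spint1 and Spint2 restrain membrane-bound trypsin-like proteases such as matriptase.

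The promoters of the members that differed most between the groups are shown first, beside that of Spint2, since Spint1, Serpina1b and Serpina1c had differences of more than 1 on the log2 scale (described further on) and Spint2 did not. The windows span 250 bases before to 50 bases after the start of each gene (RefSeq, GRCm38.p6), and 9 of the 10 members had one. Spint1 (chr2:119237110-119237409, plus strand) and its relative Spint2 (chr7:29281928-29282227, minus strand) are printed with every match to GCGTG, the core of the AhR response element, in capitals on either strand (CACGC on the printed strand marks a match on the other).

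Spint1: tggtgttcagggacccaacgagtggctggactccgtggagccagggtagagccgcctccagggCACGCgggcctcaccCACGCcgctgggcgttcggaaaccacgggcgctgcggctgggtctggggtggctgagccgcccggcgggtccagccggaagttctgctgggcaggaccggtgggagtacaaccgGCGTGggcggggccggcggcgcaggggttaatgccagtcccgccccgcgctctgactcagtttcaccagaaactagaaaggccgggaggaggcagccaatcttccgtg
Spint2: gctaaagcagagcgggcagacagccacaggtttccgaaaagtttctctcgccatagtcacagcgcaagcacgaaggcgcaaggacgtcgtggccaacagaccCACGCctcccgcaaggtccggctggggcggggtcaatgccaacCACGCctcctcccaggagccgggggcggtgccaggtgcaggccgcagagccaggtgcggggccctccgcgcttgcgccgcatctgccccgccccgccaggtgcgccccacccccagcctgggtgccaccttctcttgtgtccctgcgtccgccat

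The Spint1 window held 3 such matches and the Spint2 window held 2. The other 7 member windows held 0, and 32.4% of all 32851 promoter windows held at least 1. The longer form TNGCGTG, whose last 5 letters are the core, occurred in 0 member windows and in 5.07% of all windows. A match is a run of letters and not a known binding site.

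Serpina1b (chr12:103738140-103738439, minus strand) and Serpina1c (chr12:103904901-103905200, minus strand) are printed to show how alike the paralogues are. Capitals mark the longest run of bases found in the windows of all of Serpina1a, Serpina1b, Serpina1c, Serpina1d and Serpina1e.

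Serpina1b: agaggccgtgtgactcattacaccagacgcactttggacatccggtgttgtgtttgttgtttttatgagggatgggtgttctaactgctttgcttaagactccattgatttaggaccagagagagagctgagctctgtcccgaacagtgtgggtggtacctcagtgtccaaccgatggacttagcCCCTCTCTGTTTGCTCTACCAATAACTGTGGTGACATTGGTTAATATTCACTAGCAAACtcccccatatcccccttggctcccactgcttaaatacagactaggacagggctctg
Serpina1c: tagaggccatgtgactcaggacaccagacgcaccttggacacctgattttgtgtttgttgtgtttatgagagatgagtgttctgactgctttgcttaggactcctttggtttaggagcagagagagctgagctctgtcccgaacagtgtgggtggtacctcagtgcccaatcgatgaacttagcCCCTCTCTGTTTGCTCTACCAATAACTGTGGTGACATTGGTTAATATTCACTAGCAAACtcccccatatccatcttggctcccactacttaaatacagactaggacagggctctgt

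The run is 59 bases long and occurred in 5 of the 32851 windows, those of the 5 paralogues. Aligned locally, the Serpina1b and Serpina1c windows were identical at 276 of 300 aligned columns, or 92.0%. The other pairs of paralogues ranged from 91.4% to 97.6%, over 233 to 296 aligned columns. The pairs with Serpina1e had the shortest alignments, 233 to 250 columns, so their percentages cover less of the window. All 5 genes lie on chromosome 12, with only genes of provisional Gm symbols between them, in the order Serpina1b, Serpina1d, Serpina1a, Serpina1c and Serpina1e.

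The deposited RMA values (log2) were rounded to 1 decimal, so the smallest step is 0.1. The values of a group are given in the order of its replicates, 1 and then 2. The median value was 6.0 and 5.9 on the TCDD arrays and 5.9 on each DMSO array. TCDD replicate 1 stood apart in the control probe sets along single transcripts: the 3′ end of Gapdh exceeded its middle by 3.6 on the log2 scale there, by 2.0 in the other TCDD array and by 1.5 and 2.1 in DMSO. For beta-actin the gap was 4.0 there, 2.0 in the other TCDD array and 1.9 and 2.1 in DMSO. Between the 3′ and 5′ ends TCDD replicate 1 stood less apart. That gap was 5.4 and 4.7 in TCDD and 4.1 and 4.9 in DMSO for Gapdh. For beta-actin it was 4.4 and 3.3 in TCDD and 4.0 and 3.7 in DMSO. The DC markers Itgax (9.1 and 9.4 in TCDD, 9.6 and 10.1 in DMSO) and H2-Aa (13.0 and 12.9 in TCDD, 13.3 and 12.9 in DMSO) were well above the array medians in every sample, while the DC subset marker Xcr1 stayed near 5.3 (5.3 and 5.3 in TCDD, 5.5 and 5.2 in DMSO) and was dim.

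TCDD was set against DMSO with limma over all 22626 probe sets, and 0 had a Benjamini-Hochberg adjusted p under 0.05 (0.0%); the smallest adjusted p was 0.349. Before adjustment 2958 probe sets (13.1%) had a p under 0.05. Without moderation of the spread the count was also 0 after adjustment. No gene named here, member or not, therefore passed the test, and each difference below is TCDD minus DMSO on the log2 scale with the moderated standard error (SE) of that fit, n = 2 arrays per group.

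Among the 12 member probe sets, 6 had both TCDD arrays above both DMSO arrays, where 19.0% of all probe sets did; with each array centred on its median the count was 4, and 13.2% of all probe sets. The number with both TCDD arrays below both DMSO arrays was 1, where 18.4% of all probe sets did; after centring it was 2, and 24.6% of all probe sets. The median difference of the members was 0.325, and that of all probe sets was 0. Nothing is read from these shares, since the members were chosen on this contrast. What follows is how the members differ among themselves: Spint1 and the Serpina1b and Serpina1c probe sets were higher in TCDD by more than 1, and the other members lay between -0.55 and 0.45.

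**Figure D1:**
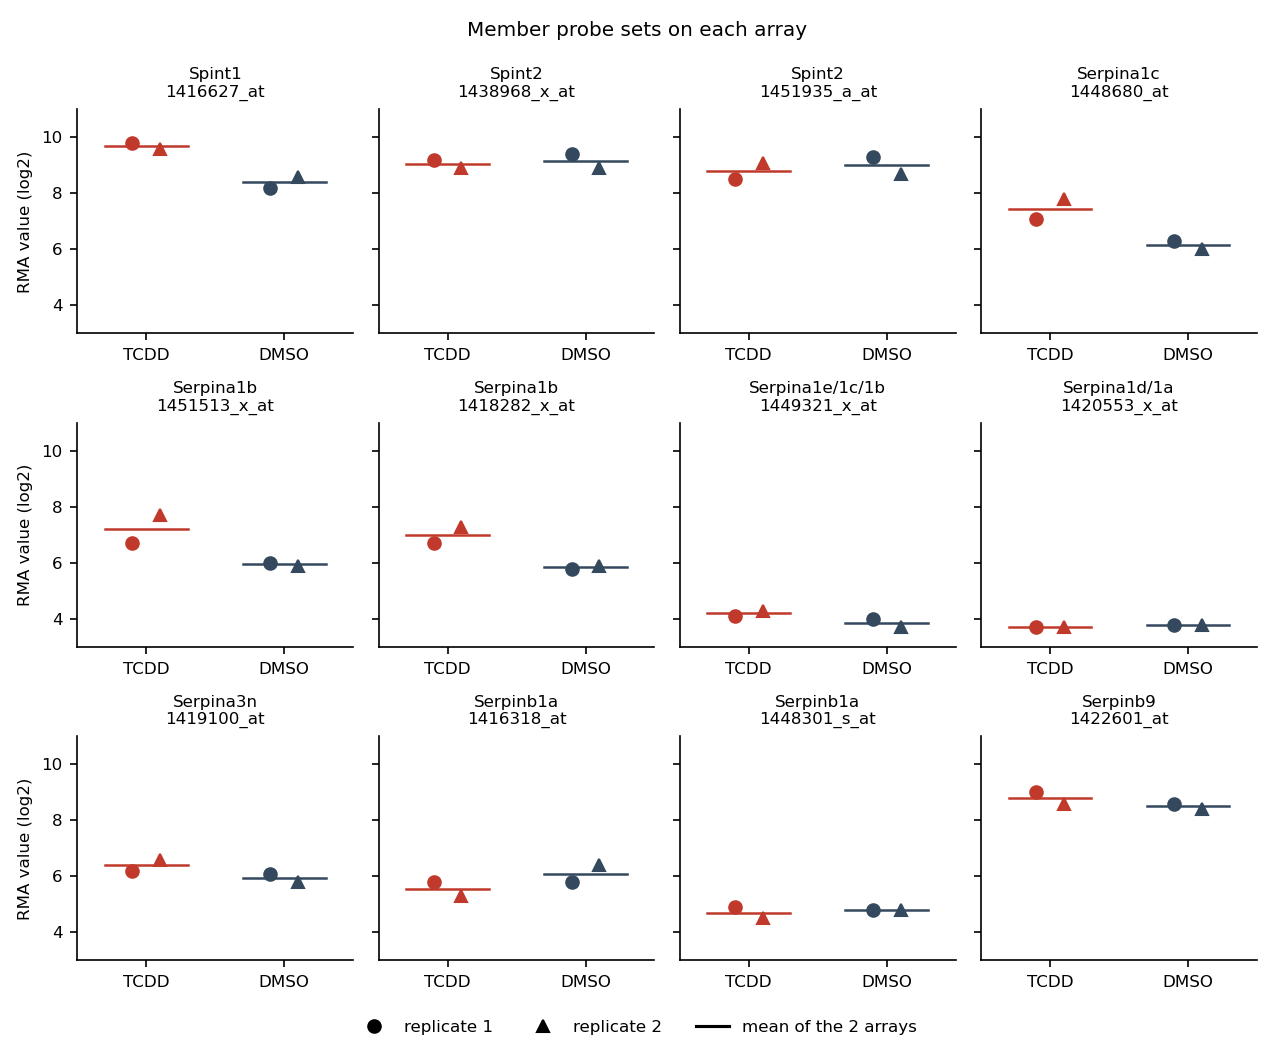
RMA values (log2) of the 12 member probe sets on the 2 TCDD arrays and the 2 DMSO arrays; circles are replicate 1, triangles replicate 2 and lines the mean of the 2 arrays of a group. The groups are apart for Spint1, with TCDD at 9.8 and 9.6 and DMSO at 8.2 and 8.6, and overlap for both Spint2 probe sets.

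Spint1 encodes a Kunitz inhibitor of the cell surface that blocks matriptase and the activator of hepatocyte growth factor (HGF). It lay at 9.8 and 9.6 in TCDD, against 8.2 and 8.6 in DMSO. Both TCDD arrays were above both DMSO arrays, and the gap between the groups exceeded the gap between the 2 arrays of either group. The difference was 1.30 (SE 0.192), or 2.46-fold, the 29th highest of the 22626 probe sets and tied with Serpina1c. Set against the DMSO mean, TCDD replicate 1 was higher by 1.4 and TCDD replicate 2 by 1.2. The array with the larger gap from 3′ end to middle and the other one gave similar values, and the part of that gap in them was not tested.

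Probe sets that were bright in DMSO had a median difference below 0. Among the 2740 probe sets with a DMSO mean from 8 to 10 the median difference was -0.40, and 63 had both TCDD arrays above both DMSO arrays while 1149 had both below. Spint1, with a DMSO mean of 8.4, had the highest difference of these 2740. Quantile normalization on top of the deposited values moved the Spint1 difference to 1.65, cyclic loess to 1.61 and median centring to 1.25. With an array left out it ranged from 1.1 to 1.5.

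Spint2 encodes the related inhibitor with an overlapping set of target proteases, and its values did not separate the groups. Its dimmer probe set lay at 8.5 and 9.1 in TCDD, against 9.3 and 8.7 in DMSO. Its brighter one lay at 9.2 and 8.9 in TCDD, against 9.4 and 8.9 in DMSO. The groups overlapped in both. The differences were -0.20 (SE 0.35) and -0.10 (SE 0.245), and their sign was positive under quantile normalization (0.175 and 0.275) and cyclic loess (0.103 and 0.207). The pair of related inhibitors thus had unlike values on the same arrays; the difference between them was not tested.

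The Serpina1 genes encode the mouse forms of alpha-1-antitrypsin, the main plasma inhibitor of neutrophil elastase, which is made mostly by hepatocytes and also by macrophages. Serpina1c lay at 7.1 and 7.8 in TCDD, against 6.3 and 6.0 in DMSO. The groups did not overlap, and TCDD replicate 2 was the highest array. The difference was 1.30 (SE 0.316), or 2.46-fold.

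Serpina1b had a pair of probe sets. The brighter lay at 6.7 and 7.7 in TCDD, against 6.0 and 5.9 in DMSO, a difference of 1.25 (SE 0.413). The dimmer lay at 6.7 and 7.3 in TCDD, against 5.8 and 5.9 in DMSO, a difference of 1.15 (SE 0.255). All 3 probe sets had TCDD replicate 2 highest, TCDD replicate 1 next and the DMSO arrays together below. The size thus depended on the array: against the DMSO mean, TCDD replicate 2 was higher by 1.65, 1.75 and 1.45 and TCDD replicate 1 by 0.95, 0.75 and 0.85, for Serpina1c, the brighter and the dimmer Serpina1b probe set in turn. Both Serpina1b probe sets carry the suffix _x_at, the manufacturer's mark for probes that can match other transcripts, and the genes are near copies, so these probe sets cannot be taken as separate measurements of separate genes.

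The 2 shared probe sets were dim. The one annotated to Serpina1e, Serpina1c and Serpina1b lay at 4.1 and 4.3 in TCDD, against 4.0 and 3.7 in DMSO, a difference of 0.35 (SE 0.159). The one annotated to Serpina1d and Serpina1a lay at 3.7 and 3.7 in TCDD, against 3.8 and 3.8 in DMSO, a difference of -0.10 (SE 0.0624), which is 1 step of the rounding. It was the single member probe set with both TCDD arrays below both DMSO arrays. Neither shows the difference of more than 1 of the Serpina1b and Serpina1c probe sets, and at such low values a difference of a transcript need not show.

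**Figure D2:**
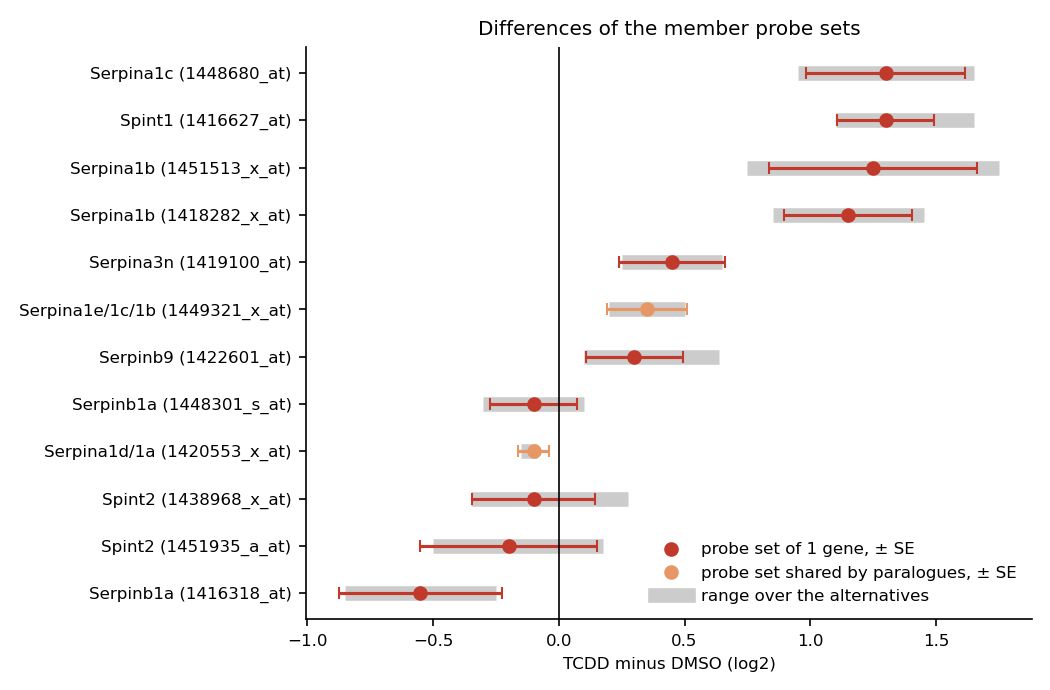
TCDD minus DMSO (log2) of each member probe set with its SE (n = 2 arrays per group); grey bars span the values under the alternative normalizations, filters and fits and with each array left out. Spint1 (1.30), Serpina1c (1.30) and the Serpina1b probe sets (1.25 and 1.15) stand to the right of the others, and the bars of both Spint2 probe sets and of the dim Serpinb1a probe set cross 0.

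Serpina3n encodes an acute-phase serpin that in the mouse inhibits granzyme B and other serine proteases. It lay at 6.2 and 6.6 in TCDD, against 6.1 and 5.8 in DMSO. The groups did not overlap, but TCDD replicate 1 was only 1 rounding step above DMSO replicate 1. The difference was 0.45 (SE 0.212); it was 0.65 without TCDD replicate 1 and 0.25 without TCDD replicate 2. Serpina3n had the same order of arrays as Serpina1c, with TCDD replicate 2 highest and DMSO replicate 2 lowest. Both genes lie in the serpin cluster of chromosome 12.

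The clade B serpins work inside cells, and the groups met or overlapped in each of their 3 probe sets. Serpinb9, the inhibitor of granzyme B that protects cytotoxic cells and DC from their own or a neighbour's granzyme, lay at 9.0 and 8.6 in TCDD, against 8.6 and 8.4 in DMSO. The groups met at 8.6. The difference was 0.30 (SE 0.192); it was 0.10 without TCDD replicate 1, 0.50 without TCDD replicate 2 and 0.637 after quantile normalization, so its size was not settled by these arrays. Serpinb1a, an inhibitor of elastase, cathepsin G and proteinase 3, lay at 5.8 and 5.3 in TCDD, against 5.8 and 6.4 in DMSO, on its brighter probe set. The groups met at 5.8, the difference was -0.55 (SE 0.323), and it ranged from -0.85 without DMSO replicate 1 to -0.25 without DMSO replicate 2. The dim Serpinb1a probe set lay at 4.9 and 4.5 in TCDD, against 4.8 and 4.8 in DMSO, a difference of -0.10 (SE 0.174).

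The profiles nearest to the extreme members were sought among probe sets with 1 symbol that were not dim, by Euclidean distance over the 4 arrays after centring each on its own mean. Nearest to Spint1 stood Il1r2, the decoy receptor for interleukin-1, at a distance of 0.497, followed by Ninj2, Fastkd2, Slco3a1 and Gnas at up to 0.538. Nearest to Serpina1c stood C86187 at 0.166, Aldh2, an aldehyde dehydrogenase, at 0.224, Tcam1 at 0.245, and Qtrt1 and the brighter Serpina1b probe set both at 0.26; as said above, these Serpina1b and Serpina1c probe sets cannot be taken as separate measurements. The nearest to the brighter Serpinb1a probe set was Manba, a lysosomal glycosidase, at 0, and the next places were shared by Bmp2k, Cox20, Dnajc13, Kat2b, Klf10, Klhl5, Mapk14, Mettl23, Nup107, Pde4b, Reps1, Thoc1, Ube2d2a and Znrf2 at 0.0866. The Spint1 profile, with its small gap between the TCDD arrays, had no match as close as the other 2 members had. With 4 arrays and rounded values such likeness is a description.

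The rest of the serpin family was taken from a list of 55 other serpin genes, with the brightest probe set of each gene. Of these 25 were measured: 4 were higher without overlap and 3 lower, where over all 12393 genes 20.0% were higher and 19.4% lower. Their median difference was 0, and 16 of the 25 were dim. The highest difference was that of Serpinb6b at 0.65 (SE 0.659), with 9.8 and 8.3 in TCDD and 8.1 and 8.7 in DMSO. It rested on TCDD replicate 1 alone. The lowest was that of Serpinb2 at -0.55 (SE 0.568), with 5.7 and 4.5 in TCDD and 5.3 and 6.0 in DMSO, equal to that of the dim Serpinb7. No serpin on this list had a difference as large as those of Serpina1b and Serpina1c.

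Among other proteins with a Kunitz domain 10 of 13 were measured, with 3 higher without overlap, 1 lower and a median difference of 0.175. Over all genes 20.0% were higher without overlap and 19.4% lower. Wfikkn1 had the highest difference, 0.75 (SE 0.255), with 6.0 and 6.6 in TCDD and 5.6 and 5.5 in DMSO. App, the amyloid precursor protein, some forms of which carry a Kunitz domain, had the lowest, -1.45 (SE 0.212), with 9.0 and 9.0 in TCDD and 10.2 and 10.7 in DMSO. Of the other App probe sets the brightest lay at 7.3 and 7.3 in TCDD and 7.5 and 7.5 in DMSO, a difference of -0.20, and both dim ones differed by -0.15 and -0.10. Spint1 and App thus stood at opposite ends of the Kunitz-domain genes by their brightest probe sets.

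**Figure D3:**
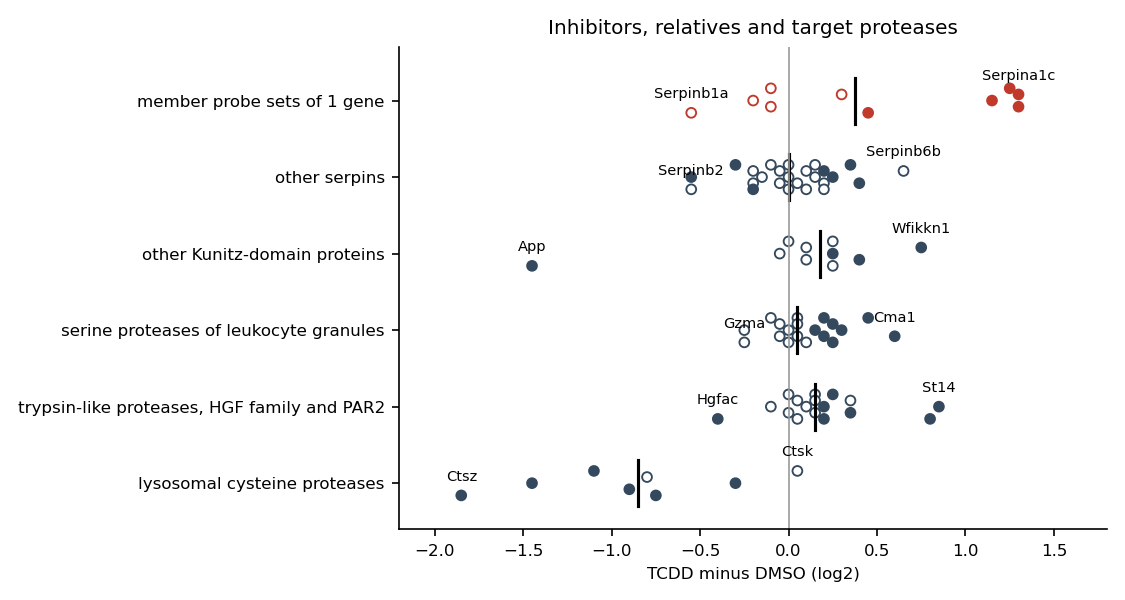
TCDD minus DMSO (log2) of the member probe sets with 1 symbol (red) and, by the brightest probe set of each gene, of related inhibitors and of proteases (blue); filled points have no overlap between the groups and black bars are medians. The highest and the lowest gene of each row are named, and Spint1 ties with Serpina1c at 1.30.

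Proteases were described from 3 further lists, which are not lists of known targets of the members. The last list is of cysteine proteases, a class other than the serine proteases that the members are named for. On a list of trypsin-like proteases, the HGF family and the receptor PAR2, 17 of 19 genes were measured, the PAR2 gene not among them. The median difference was 0.15. Without overlap 6 were higher and 1 was lower, where over all genes 20.0% were higher and 19.4% lower. St14, which encodes matriptase, the protease held in check by Spint1 and Spint2, had the highest difference, with 7.3 and 8.4 in TCDD and 7.1 and 6.9 in DMSO. The groups did not overlap, but the gap between the TCDD arrays was larger than the gap between the groups at its narrowest, and the difference was 0.85 (SE 0.458). F12, coagulation factor XII, was at 0.80 (SE 0.252), chosen after its value was seen. Hgfac, the HGF activator that Spint1 inhibits, had the lowest difference, with 5.9 and 5.9 in TCDD and 6.4 and 6.2 in DMSO (-0.40, SE 0.102).

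Of the serine proteases of leukocyte granules, a list that includes targets of the Serpina1, Serpina3n, Serpinb1a and Serpinb9 proteins, 19 of 20 were measured. Not every gene on it is such a target. Without overlap 8 were higher and 0 were lower, and the median difference was 0.05. Over all genes 20.0% were higher without overlap and 19.4% lower. Elane, neutrophil elastase, lay at 6.5 and 6.6 in TCDD and 6.6 and 6.6 in DMSO, and Gzmb, granzyme B, at 5.7 and 5.4 in TCDD and 5.6 and 5.3 in DMSO. The groups overlapped in both. Prtn3, proteinase 3, lay at 5.6 and 5.5 in TCDD and 5.4 and 5.3 in DMSO, and Ctsg, cathepsin G, at 5.7 and 5.5 in TCDD and 5.4 and 5.2 in DMSO; both were dim and higher without overlap, by 0.20 and 0.30. The highest difference was that of the mast cell chymase gene Cma1 at 0.60 (SE 0.183) and the lowest that of Gzma at -0.25 (SE 0.712). All 8 lysosomal cysteine protease genes were measured; 6 were lower without overlap, 0 were higher and the median was -0.85. Against the DMSO mean the list's median was -1.35 in TCDD replicate 1, the array with the steep control gradient, and -0.35 in TCDD replicate 2. Ctsz had the lowest difference, -1.85 (SE 1.14), with 7.0 and 9.8 in TCDD and 10.3 and 10.2 in DMSO. Its other probe sets differed by -1.45, without overlap, and by -0.20, with overlap (8.3 and 7.9 in TCDD, 8.4 and 8.2 in DMSO). Ctsk had the highest difference at 0.05 (SE 0.11). Most of these genes are bright, and the 796 probe sets with a DMSO mean from 10 to 15 had a median difference of -0.35. That band too was set by the DMSO values that the difference uses.

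Markers of other cells in the preparation were set beside the members. Over all 12393 genes, by the brightest probe set, 20.0% were higher without overlap and 19.4% lower. In bulk RNA fewer cells of a type and less RNA per cell cannot be told apart. RMA gives no true 0, so a gene that is not expressed has a low value and not 0.

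Hepatocyte genes bear on Serpina1, which the liver makes in bulk. Of 15 listed, 13 were measured and 9 of these were dim. The median difference was 0.15. Without overlap 4 were higher and 1 was lower, where over all genes 20.0% were higher and 19.4% lower. Albumin (Alb), the most abundant hepatocyte transcript, was dim and lay at 5.5 and 5.1 in TCDD and 5.3 and 5.2 in DMSO. The summed linear signal of the list was 616 and 603 in TCDD, and 523 and 527 in DMSO. The highest difference was that of Apoa1, a lipoprotein gene, at 0.55 (SE 0.11), with 5.7 and 5.9 in TCDD and 5.3 and 5.2 in DMSO, and the lowest that of Hpx at -0.25. The part of these genes in the Serpina1 values was not tested.

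Neutrophil markers had their highest summed signal in TCDD replicate 1. Of 15 listed, 13 were measured, and the median difference was 0.40. Without overlap 5 were higher and 1 was lower, where over all genes 20.0% were higher and 19.4% lower. The summed linear signal was 3726 and 1411 in TCDD, and 1155 and 1038 in DMSO. S100a8 had the highest difference, with 10.3 and 5.6 in TCDD and 6.4 and 5.9 in DMSO, and Mmp9 the lowest at -0.50. S100a9 (9.6 and 5.3 in TCDD, 6.4 and 5.6 in DMSO) and Ngp (8.8 and 6.9 in TCDD, 7.2 and 6.7 in DMSO) were likewise highest in TCDD replicate 1. Other markers of the list were higher in both TCDD arrays: Il1r2, which had the profile nearest to Spint1, lay at 8.6 and 9.0 in TCDD and 7.1 and 7.4 in DMSO, and Camp at 6.9 and 6.5 in TCDD and 5.6 and 5.1 in DMSO. Without TCDD replicate 1 the differences were 1.2 for Spint1 and 1.65 for Serpina1c. The part of neutrophil transcripts in the member values was not tested.

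Epithelial genes bear on Spint1. All 9 listed were measured, 5 were dim and the median difference was 0.25. Without overlap 5 were higher and 0 were lower, where over all genes 20.0% were higher and 19.4% lower. The summed linear signal was 612 and 695 in TCDD, and 486 and 479 in DMSO. St14 is on this list too and had its highest difference, and Cldn4 had the lowest at -0.05. Epcam, a defining epithelial surface marker, lay at 7.0 and 6.0 in TCDD and 6.3 and 6.3 in DMSO, so the groups overlapped. The keratin genes Krt8 (0.25), Krt18 (0.35) and Krt19 (0.45) and the tight junction gene Cldn7 (0.35) were higher without overlap, all of them dim except Krt8. The part of epithelial transcripts in the Spint1 values was not tested.

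DC and macrophage markers had median differences below 0, with overlap between the groups in 13 of the 20 measured DC markers and 10 of the 17 measured macrophage markers and 0 called. Of 21 conventional DC markers 20 were measured, 7 were lower without overlap and 0 higher, with a median of -0.475, a lowest difference of -1.10 for Cd74 and a highest of 0 for Ccr7; their summed linear signal was 22113 and 31316 in TCDD, and 42674 and 32712 in DMSO. Of 18 macrophage and monocyte markers 17 were measured, 7 were lower without overlap and 0 higher, with a median of -0.60. The lowest difference was -1.15 for Slc40a1. The highest was 0.40 (SE 0.775) for C1qb, whose other probe sets differed by -0.65 and -0.05. The summed signal was 11188 and 7770 in TCDD, and 12686 and 13940 in DMSO. Beside these 7 of 20 and 7 of 17, 19.4% of all genes were lower without overlap by their brightest probe set. Of the probe sets with a DMSO mean from 8 to 10, 41.9% were, and of those from 10 to 15, 41.0%. Both bands were set by the DMSO values that the difference uses, which by itself raises the share that is lower. Most of these markers lie in these bands, such as Cd74 at a DMSO mean of 12.85, while others lie in neither, such as Fcgr1 at 5.8. The part of DC and macrophage transcripts in the member values was not tested.

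The other lists had medians near 0. For plasmacytoid DC markers (8 of 10 measured) the median was 0, with 2 higher without overlap and 0 lower. Ccr9 was highest at 0.80 (SE 1.02) and Tcf4 lowest at -0.65 (SE 0.506). Ccr9 lay at 8.5 and 6.0 in TCDD and 6.6 and 6.3 in DMSO, and its dim probe sets differed by 0.05 and -0.05. The other Tcf4 probe sets ranged from -0.40 to 0.20. For B cell markers (10 of 11) it was -0.05, with 3 higher and 3 lower, Cd79a at 0.45 and Cd79b at -0.60. For T and NK cell markers (13 of 16) it was -0.10, with 1 higher and 2 lower, Cd3g at 0.25 and Klrd1 at -0.75. For erythroid markers (7 of 10) it was 0.05, with 2 higher and 0 lower, Klf1 at 0.40 and Alas2 at -0.05.

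**Figure D4:**
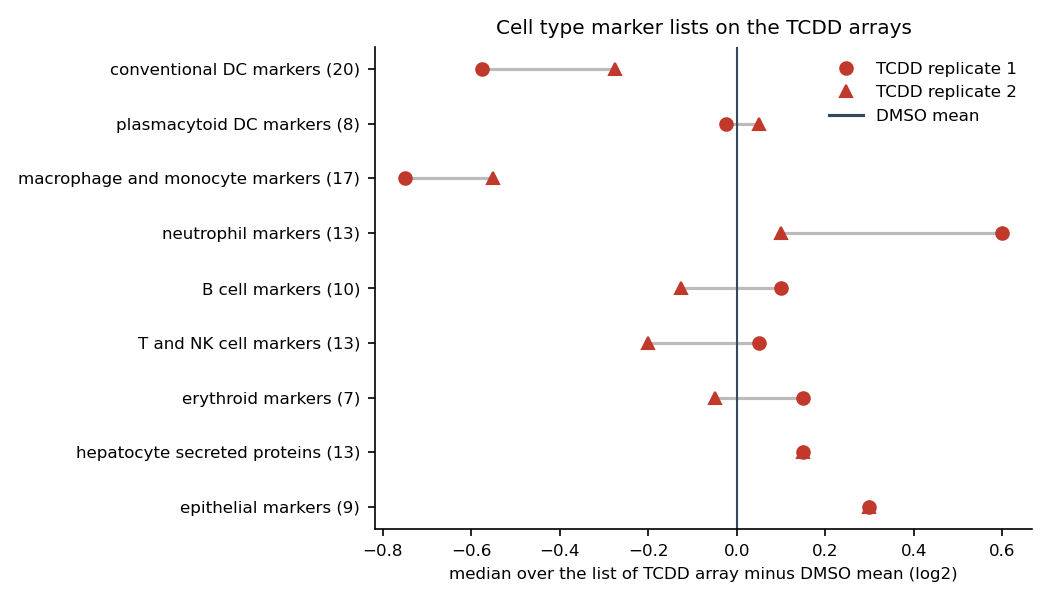
Median over each marker list (number of genes measured in brackets) of TCDD replicate 1 (circles) and TCDD replicate 2 (triangles) minus the DMSO mean, on the log2 scale. Neutrophil markers stand at 0.60 in replicate 1 and 0.10 in replicate 2, hepatocyte and epithelial lists at 0.15 and 0.30 in both, and DC and macrophage lists below 0.

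AhR target genes were described on the same arrays for comparison. Of 16 listed, 13 were measured, and the median difference was 0.20. Without overlap 5 were higher and 0 lower, where over all genes 20.0% were higher and 19.4% lower. Ahrr, the AhR repressor, had the highest difference, 2.15 (SE 0.28), and Nfe2l2 the lowest, -0.30 (SE 0.252). Ahrr lay at 7.2 and 7.8 in TCDD and 5.5 and 5.2 in DMSO, with TCDD replicate 2 highest as for Serpina1b and Serpina1c. Cyp1a1, the classical target, lay at 5.4 and 5.3 in TCDD and 5.3 and 5.3 in DMSO and was dim. Spint1, Serpina1b and Serpina1c had larger differences than 11 of the 13 measured targets. The exceptions were Ahrr and Fmo2, the latter at 1.60 (SE 0.653). The members were chosen with these values known and 5 of the 13 targets were dim, so nothing is read from this ranking.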

How the data were processed

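Total RNA of sorted spleen DC was amplified and hybridised to Affymetrix mouse arrays, per the labels' protocols, with 2 arrays for TCDD and 2 for DMSO. The authors deposited log2 values made with RMA, per the submitters' processing notes. RMA subtracts background, makes the arrays' distributions alike and combines the probes of a probe set, so a shift common to all genes is lost. The deposited distributions were still not identical. Their highest values were 14.5 and 14.1 in TCDD and 14.3 and 14.4 in DMSO. A further quantile normalization moved differences, that of Spint1 from 1.30 to 1.65. The software and its version are not stated in these notes. All values lay on steps of 0.1. Of 22690 probe sets 64 controls were left out. Gene symbols came from the platform annotation, with 20380 tested probe sets of 1 symbol, 691 of several and 1555 of none; gene IDs changed 0 symbols.

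The members, the lists and the tests were chosen with earlier results of these data known. Groups followed the sample titles. TCDD was compared with DMSO with limma 3.58.1 in R 4.3.3 (lmFit, eBayes, two-sided, Benjamini-Hochberg over 22626 probe sets, threshold 0.05; prior of 1.03 degrees of freedom), tested on simulated data. The smallest p of an exact permutation test with 2 arrays per group is 0.33, so none was run. All 10 members were to be named, with the highest and lowest gene of each list and the 5 nearest profiles of the extreme members. Arrays give no counts, so their number limits the precision. Replicate 1 minus replicate 2 correlated at -0.189 between the groups over probe sets, and nothing in the labels pairs the numbers. Alternatives were other normalizations, a filter on dim probe sets, a replicate block, other variance settings and leaving out each array. Promoter windows were aligned with Biopython 1.88.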

Additional observations from a re-analysis of the deposited data

How the results depend on the processing

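With limma, 0 probe sets passed after quantile normalization, cyclic loess or median centring, without dim probe sets, with the replicate block (smallest adjusted p 0.421), a trended robust prior, a variance floor for the rounding or any array left out (smallest adjusted p 0.114 to 0.604). The replicate block cannot change a difference when each group holds both replicate numbers, and it gave 0 calls. A crossed replicate block, chosen after seeing the data because of the negative correlation between replicate numbers, also called 0. The count of member probe sets higher without overlap was 4 to 7 under these normalizations and filters, and 6 to 8 with an array left out, where separate groups are easier to reach; over all probe sets these shares were 13.2% to 22.4% and 24.8% to 40.8%. The count lower without overlap, 1 as reported, was 2 under quantile normalization, median centring and cyclic loess, 0 without dim probe sets, with only probe sets of 1 symbol and with 1 probe set per gene, and 2 to 3 with an array left out; over all probe sets the shares were 16.5% to 24.6% and, with an array left out, 23.7% to 45.3%. The members' median difference, 0.325, ranged from 0.2 to 0.45. Of 129 member differences under the alternatives 120 kept their direction, 9 were reversed and none was called. The replicate block, the robust prior, the variance floor and the filter on dim probe sets leave each difference as it is. Those alternatives could not reverse a direction, so 120 of 129 overstates how stable the directions were. Reversed were both Spint2 probe sets, the dimmer at 0.175 under quantile normalization, 0.103 under cyclic loess and from -0.50 to 0.10 with an array left out, and the brighter at 0.275, 0.207 and from -0.35 to 0.15. The dim Serpinb1a probe set ranged from -0.30 to 0.10 with an array left out. The cause was not tested. Probe sets near the low end of the scale, among them both shared Serpina1 probe sets, can hide a difference of the transcript.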
